A study of Rattus norvegicus with 372 samples.

Results

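Primary rat hepatocytes treated with simvastatin at 60 µM were compared directly with those treated at 2.4 µM, to separate the sterol response already present at the low concentration from what the high one added. By whole transcriptome (WT) assay there were 12 such wells of 372 libraries in all, 3 wells at each concentration in each of 2 batches, chosen by the chemical, concentration and assay in their labels. Each batch held hepatocytes of 1 male Wistar rat in collagen sandwich culture, treated for 24 h in medium with 0.5% DMSO. The vehicle wells got that amount of DMSO and no chemical, 3 in batch 1 and 6 in batch 2, and wells labelled media were not compared here. In batch 2, 3 of the 6 vehicle wells lay on another plate than the simvastatin wells, so comparisons with vehicle mix plates there. Every group had insulin, dexamethasone and epidermal growth factor in its medium. The same lysates were also run by the smaller S1500+ surrogate (ST) assay, used here as a check, with 12 simvastatin libraries of its own. The 3 wells of a concentration lay on one plate and are technical replicates of one rat, so the adjusted p-values given here measure mainly the spread between wells. Biological replication comes from the 2 rats alone.

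Simvastatin is a statin, a blocker of the mevalonate pathway, which makes cholesterol and also the isoprenoid chains that anchor small GTPases to membranes. When sterol in the endoplasmic reticulum runs low, Insig proteins release SCAP, and SCAP carries the transcription factor SREBP2 (Srebf2) to the Golgi to be cut and activated. SREBP2 then turns on the enzymes of cholesterol synthesis, acting together with NF-Y, which binds CCAAT. In liver, other nuclear receptors respond to lipids and drugs: PPARα raises genes of fatty acid oxidation, and CAR and PXR raise drug-metabolizing enzymes.

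The 12 WT wells had between 5985847 and 8112359 reads (median 6985884). Pearson's r of log2(CPM + 0.5) with wells of the same concentration and batch was between 0.9825 and 0.9907, and with wells of the other concentration between 0.9589 and 0.9734, so no well stood closer to the other concentration. CPM is the count of a gene scaled to a common library size, with TMM, except that summed CPM of markers use total reads without TMM. The hepatocyte label was checked on 7 marker genes, each with reads in every group of wells. Their summed CPM was 28600 to 37700 at 2.4 µM and 32100 to 36700 at 60 µM. Markers of other liver cells had low sums beside these, and some had no read in a group of wells. Their values are given below.

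Between the concentrations, 2443 of 10191 genes tested were DEGs (24.0%), 1224 higher (12.0%) and 1219 lower (12.0%) at 60 µM, and 494 of them had an absolute L2FC (log2 fold change) of at least 1. DEGs here are genes with a Benjamini-Hochberg adjusted p under 0.05 by the edgeR quasi-likelihood test. All 6 wells at 60 µM lay outside the range of the 6 wells at 2.4 µM for 1168 genes (11.5%), 637 above and 531 below. In the same fit 2.4 µM gave 245 DEGs against vehicle (2.4%), 115 higher (1.13%) and 130 lower (1.28%), and 60 µM gave 2436 (23.9%). These 3 comparisons share wells and so are not independent of each other. The median L2FC over all genes was -0.00425 for 60 against 2.4 µM. The background of 12.0% in each direction is what each list's share from 2.4 to 60 µM is read against below.

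**Figure D1:**
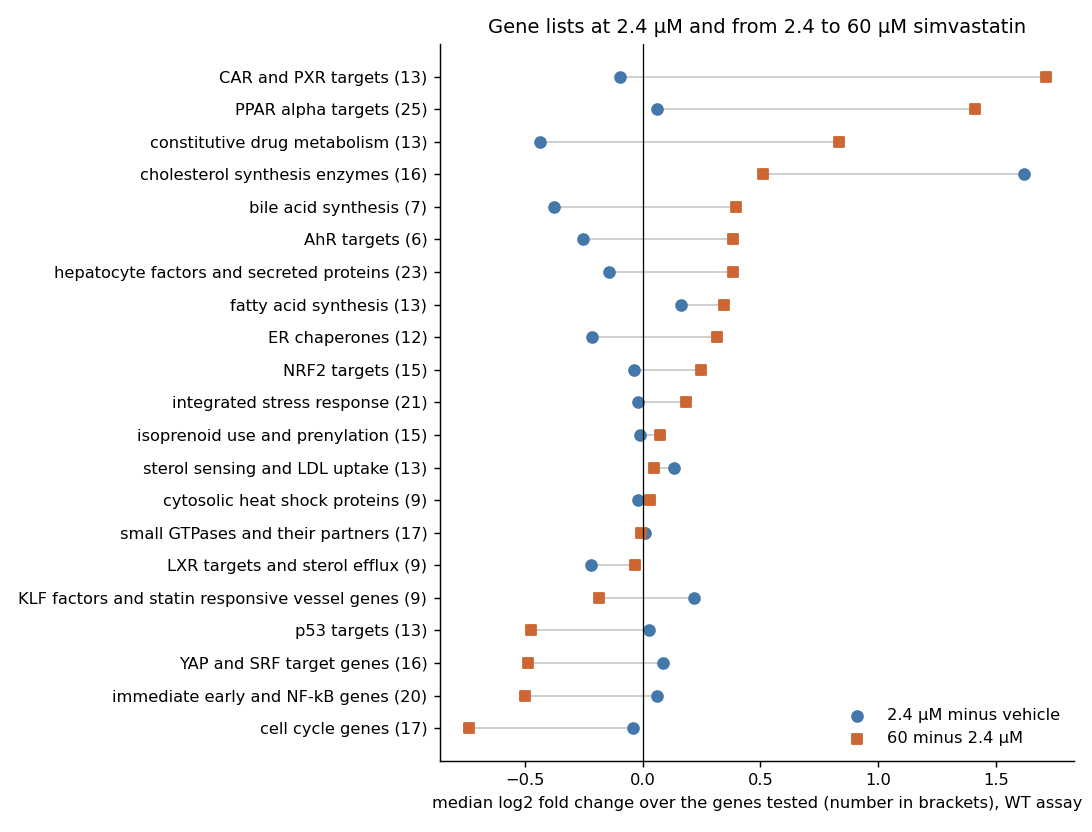
Median L2FC of each gene list, for 2.4 µM against vehicle and for 60 against 2.4 µM, in the WT assay over both batches. The cholesterol synthesis list lies at 1.62 in the first comparison and 0.512 in the second, while the PPARα list lies at 0.0633 and 1.41.

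Most enzymes of cholesterol synthesis were already higher at 2.4 µM. Of 20 enzymes listed, 17 were in the WT table and 16 were tested. At 2.4 µM, 15 of these 16 were higher than vehicle (background 1.13%), with a median L2FC of 1.62. From 2.4 to 60 µM, 8 of the 16 rose further (background 12.0%), none fell, and the median L2FC was 0.512.

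The enzymes that rose again lie along the whole pathway. Among the 8 were Acat2, which condenses acetyl-CoA, the mevalonate kinase Mvk, the decarboxylase Mvd, the farnesyl diphosphate synthase Fdps, and Lss and Hsd17b7 of the sterol branch. Lss, which closes the sterol ring, was at 3.33, 4.78 and 10.5 CPM (lowest, median and highest well) with vehicle, at 7.83, 15.8 and 18.4 CPM at 2.4 µM, and at 20.8, 26.1 and 29.6 CPM at 60 µM. The wells of the 2 concentrations did not overlap, while those at 2.4 µM overlapped with vehicle. Its L2FC was 1.40 ± 0.155 (SE) from vehicle to 2.4 µM and 0.77 ± 0.16 (SE) from 2.4 to 60 µM (adjusted p = 4.46e-05, edgeR).

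Mvk was at 18.7, 22.0 and 23.2 CPM with vehicle, 32.7, 37.6 and 39.6 CPM at 2.4 µM and 44.3, 53.1 and 60.9 CPM at 60 µM, with no overlap between the 3 groups. Its L2FC was 0.77 ± 0.10 (SE) and then 0.52 ± 0.10 (SE). Mvk and Lss were among 3 of the 16 enzymes without overlap of the wells at the 2 concentrations (background 11.5%). Acat2 went from 56.7, 96.5 and 113 CPM to 95.1, 144 and 203 CPM, and Hsd17b7 from 10.8, 17.8 and 22.5 CPM to 17.8, 25.5 and 35.3 CPM, both with overlapping wells and with L2FC of 0.64 ± 0.18 (SE) and 0.62 ± 0.18 (SE).

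For other enzymes a second step was not called over both batches. Hmgcs1, the HMG-CoA synthase of the cytosol, was at 2.15, 3.85 and 8.19 CPM with vehicle, 14.3, 21.0 and 26.9 CPM at 2.4 µM and 19.2, 21.3 and 27.1 CPM at 60 µM. Over both batches it was 5.21-fold above vehicle at 2.4 µM, with an L2FC of 1.66 in batch 1 and 2.91 in batch 2. Its wells at the 2 concentrations overlapped (L2FC 0.06 ± 0.20 SE, adjusted p = 0.887, edgeR). Msmo1, a sterol methyl oxidase, was at 33.3, 48.6 and 53.1 CPM at 2.4 µM and at 33.7, 46.1 and 55.5 CPM at 60 µM, with an L2FC of 2.45 over vehicle and then -0.03 ± 0.18 (SE). Cyp51, Nsdhl, Dhcr7 and Sqle had L2FC between 0.09 and 0.26 for the second step and were not called. In batch 1 alone, however, Cyp51 was called (0.48, adjusted p = 0.0423, edgeR) and Sqle had 0.46, against -0.09 and 0.08 in batch 2. Idi1 (0.51, adjusted p = 0.0519, edgeR, and called in batch 1 with 0.82) and Fdft1 (0.39, adjusted p = 0.069) lay just outside the threshold, and Fdps (0.56, adjusted p = 0.0254) and Mvd (0.54, adjusted p = 0.0163) just inside it. The calls of Fdps and Mvd were lost without any 1 of 4 wells and any 1 of 2 wells, with adjusted p (edgeR) up to 0.0741 and 0.0827.

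The L2FC of 2.4 µM over vehicle was set against that of 60 µM over vehicle, as a percentage. For the 16 enzymes this percentage had a median of 80.1% (40.7 to 101%), and it was above 50% for 14 of them. It was 59.8% for Mvk, 64.6% for Lss, 97.7% for Hmgcs1 and 101% for Msmo1. For 25 targets of PPARα it had a median of 2.61% (-47.0 to 27.3%) and was above 50% for 0. Both L2FC use the same vehicle wells, so the percentage is a description and was not tested. It was taken over both batches, which differ in the size of each step, as given below.

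**Figure D2:**
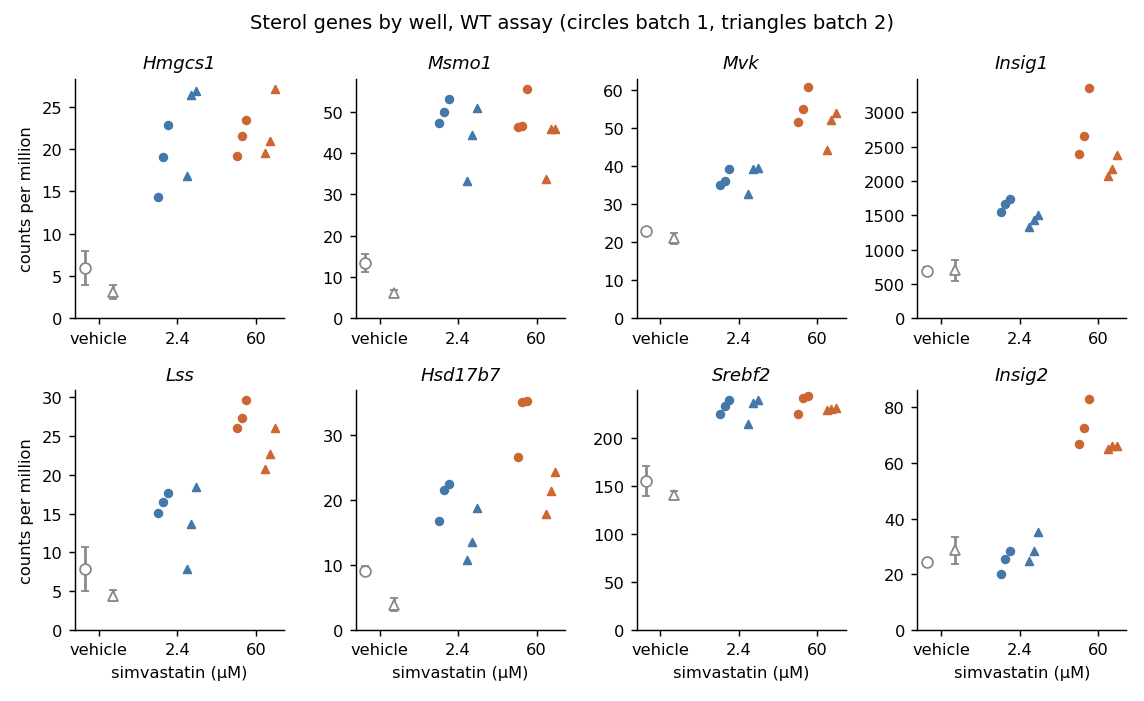
CPM by WT assay on a linear axis from 0 of 8 genes of sterol synthesis and sensing, with circles for wells of batch 1 and triangles for wells of batch 2, and the mean ± SD of vehicle wells (n = 3 in batch 1, n = 6 in batch 2). Hmgcs1, Msmo1 and Srebf2 lie at one level at 2.4 and 60 µM, Mvk, Insig1 and Lss rise at each step, and Insig2 rises at 60 µM.

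Among the genes that sense sterol and take up LDL, 13 of 15 listed were tested. At 2.4 µM 5 were higher than vehicle (background 1.13%), among them Srebf2, Insig1, Stard4 and Tmem97, the last 2 named after their values were seen. In batch 1 alone Tmem97 was not called, with an L2FC of 0.31 against 1.08 in batch 2. From 2.4 to 60 µM, 2 of the 13 rose (15.4%) and 1 fell (7.69%), shares near the background of 12.0%. Srebf2 was at 132, 141 and 171 CPM with vehicle, 214, 235 and 239 CPM at 2.4 µM and 225, 230 and 244 CPM at 60 µM. The second step had an L2FC of 0.02 ± 0.06 (SE).

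The Insig genes, whose proteins hold SCAP in the endoplasmic reticulum, moved differently. Insig1 was at 540, 643 and 966 CPM with vehicle, 1330, 1530 and 1740 CPM at 2.4 µM and 2070, 2390 and 3350 CPM at 60 µM, with no overlap between the groups. Its L2FC was 1.19 ± 0.14 (SE) and then 0.71 ± 0.15 (SE). Insig2 was at 23.3, 25 and 34.7 CPM with vehicle and 20.1, 27.0 and 35.3 CPM at 2.4 µM, which overlap fully, and at 65.0, 66.4 and 83.0 CPM at 60 µM. From 2.4 to 60 µM it was 2.60-fold higher (L2FC 1.38 ± 0.15 SE, adjusted p = 2.13e-14, edgeR), in both batches. Scarb1, the HDL receptor, fell, with an L2FC of -0.43 ± 0.13 (SE) and overlapping wells.

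The promoters of 4 genes, chosen after their values were seen, are shown for the range of their steps. Hmgcs1 was called only over vehicle at 2.4 µM, Idi1 lay just outside the threshold for the second step, Insig1 was called at both steps and Insig2 only from 2.4 to 60 µM. Each is the 250 bases before the start of the gene in RefSeq on the rat assembly GRCr8, read along the gene, with CCAAT or its reverse complement ATTGG in capitals. They lie at chr2:53382054-53382303 (plus strand), chr17:66547525-66547774 (minus), chr4:8057770-8058019 (minus) and chr13:35040099-35040348 (minus).
Hmgcs1: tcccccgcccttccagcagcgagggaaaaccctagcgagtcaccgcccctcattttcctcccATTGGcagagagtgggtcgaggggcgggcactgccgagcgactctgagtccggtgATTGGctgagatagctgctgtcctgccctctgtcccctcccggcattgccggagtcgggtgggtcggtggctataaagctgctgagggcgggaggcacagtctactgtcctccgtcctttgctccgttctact
Idi1: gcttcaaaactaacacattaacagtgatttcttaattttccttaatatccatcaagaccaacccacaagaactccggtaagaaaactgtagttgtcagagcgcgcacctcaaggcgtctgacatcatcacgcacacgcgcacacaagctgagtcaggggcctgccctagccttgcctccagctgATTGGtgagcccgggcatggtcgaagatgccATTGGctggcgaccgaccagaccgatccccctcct
Insig1: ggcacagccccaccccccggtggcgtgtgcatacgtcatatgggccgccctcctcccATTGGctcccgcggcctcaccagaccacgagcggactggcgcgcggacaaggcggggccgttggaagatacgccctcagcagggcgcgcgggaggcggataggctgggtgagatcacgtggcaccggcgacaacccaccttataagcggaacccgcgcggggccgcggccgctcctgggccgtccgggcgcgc
Insig2: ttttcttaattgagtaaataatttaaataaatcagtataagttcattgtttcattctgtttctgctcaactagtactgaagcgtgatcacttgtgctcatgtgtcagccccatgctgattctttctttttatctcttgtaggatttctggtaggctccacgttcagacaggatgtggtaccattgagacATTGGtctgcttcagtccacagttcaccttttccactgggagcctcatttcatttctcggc

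Hmgcs1 and Idi1 each hold 2 such matches, and Insig1 and Insig2 hold 1 each. Over the lists, a match on either strand was present in 12 of 15 promoters found for the cholesterol synthesis enzymes (80.0%), in 6 of 11 for the sterol sensing genes (54.5%) and in 8 of 25 for the PPARα targets (32.0%). Among all 27457 promoters of this length it was 34.3%. The sterol regulatory element as the letters TCACNCCAC was in 0 of the 15 enzyme promoters, against 0.976% of all, and the PPAR response element of the DR1 type was in 0 of 25 PPARα promoters, against 0.0546% of all. These are matches of letters in a short window and were not tested.

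Genes that handle sterol excess and the other branches of the pathway were called between the concentrations no more often than all genes (12.0% in each direction). Abcg1, a sterol exporter raised by LXR, was at 5.35, 8.00 and 13.8 CPM with vehicle and at 0.777, 1.05 and 2.41 CPM at 2.4 µM, an L2FC of -2.85 ± 0.27 (SE), and at 60 µM it stood at 0.682, 1.69 and 2.46 CPM. It was chosen after its values were seen. Of 9 genes of LXR and efflux tested, 1 rose at 60 µM (11.1%; Soat2, which esterifies cholesterol, L2FC 0.59) and 1 fell (Abca1, another exporter, L2FC -0.74 ± 0.21 SE). Of 15 genes that use isoprenoids or attach them to proteins, 1 rose from 2.4 to 60 µM, Dhdds, which builds dolichol chains (L2FC 0.59), and 0 differed from vehicle at 2.4 µM. By edgeR that count was 0, with 0 at an unadjusted p under 0.05 and 0 by DESeq2.

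In fatty acid synthesis, 5 of 13 genes were higher than vehicle at 2.4 µM (background 1.13%), Acly, Fasn, Elovl6, Fads1 and Aacs, which were named after their values were seen. From 2.4 to 60 µM, 3 others rose (23.1%, background 12.0%), Scd, Acss2 and Thrsp. Scd, which makes monounsaturated fatty acids, was at 8.21, 14.3 and 18.1 CPM at 2.4 µM, within the range of vehicle, and at 47.2, 68.1 and 104 CPM at 60 µM (5.04-fold, L2FC 2.33 ± 0.20 SE). Fasn had an L2FC of 1.06 ± 0.16 (SE) over vehicle at 2.4 µM and 0.21 ± 0.17 (SE) between the concentrations. In batch 1 alone, 6 of the 13 were higher at 60 than at 2.4 µM, Fasn (0.36) and Acly (0.30) among them, and in batch 2 alone 2 were.

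Among the lists, the targets of PPARα had the highest share of members that rose between the concentrations. All 25 of 32 listed targets that were in the table were tested, and 24 were higher at 60 than at 2.4 µM (background 12.0%), with a median L2FC of 1.41. The wells of these 24 did not overlap (background 11.5%). At 2.4 µM, 1 of the 25 differed from vehicle, the lipid droplet gene Plin2 with an L2FC of 0.43, and the median was 0.0633. By batch, Plin2 was called in batch 2 alone, while in batch 1 Cyp4a2 was called higher and Fabp1 lower than vehicle. The 1 target not called between the concentrations was Acot1 (L2FC 2.15, adjusted p = 0.0919, edgeR). Both were named because they are single exceptions, after their values were seen.

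Cyp4a2, a fatty acid omega-hydroxylase, was at 7.96, 10.3 and 13.2 CPM with vehicle, 11, 19.6 and 24.9 CPM at 2.4 µM and 324, 419 and 645 CPM at 60 µM. That is 23.0-fold from 2.4 to 60 µM (L2FC 4.53 ± 0.35 SE, adjusted p = 3.77e-24, edgeR). Its paralog Cyp4a1 went from 1.28, 1.64 and 2.90 CPM to 33.1, 39.6 and 45.7 CPM. Fabp1, which carries fatty acids in the cytosol, went from 13.5, 23.5 and 30.0 CPM to 87.7, 121 and 154 CPM (5.41-fold, L2FC 2.44 ± 0.31 SE). In each of these genes every well at 60 µM was above every vehicle well too.

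The rise covered oxidation in both peroxisomes and mitochondria. Among targets named after their values were seen, Ehhadh of the peroxisome had an L2FC of 2.36 ± 0.33 (SE). Cpt1a, which admits fatty acids to mitochondria, had an L2FC of 1.43 ± 0.23 (SE), and Acadm, a mitochondrial acyl-CoA dehydrogenase, went from 72.0, 84.4 and 92.4 CPM to 146, 152 and 166 CPM (L2FC 0.86 ± 0.12 SE). Pdk4, which restrains the use of glucose, was at 0 to 0.647 CPM at 2.4 µM and 0.682 to 1.95 CPM at 60 µM, a level too low for a fold change to carry weight. The L2FC of the other called members ran from 0.31 (Acadl) upward.

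**Figure D3:**
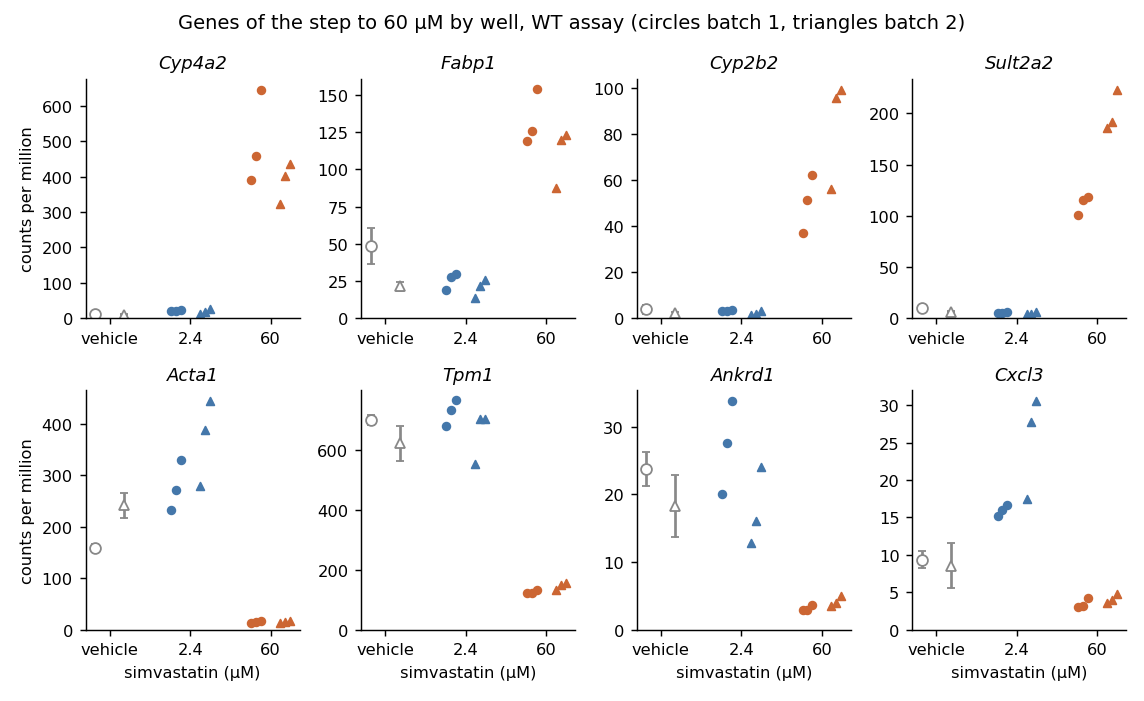
CPM by WT assay on a linear axis from 0 of 8 genes that changed from 2.4 to 60 µM, with circles for wells of batch 1, triangles for batch 2 and the mean ± SD of vehicle wells (n = 3 in batch 1, n = 6 in batch 2). Cyp4a2, Fabp1, Cyp2b2 and Sult2a2 are higher at 60 µM, and Acta1, Tpm1, Ankrd1 and Cxcl3 lower, with no overlap between the concentrations.

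Targets of CAR and PXR rose at 60 µM as well. Of 21 listed, 13 were tested and 10 were higher than at 2.4 µM (76.9%, background 12.0%), with a median L2FC of 1.71 and no overlap of the wells in 10 of the 13. At 2.4 µM none was higher than vehicle and 2 were lower, the receptors themselves, Nr1i2 (PXR, L2FC -0.54) and Nr1i3 (CAR, -0.85), named after their values were seen. At 60 µM both were higher than at 2.4 µM, with L2FC of 0.89 and 2.35. The count of higher members at 2.4 µM was 0 by edgeR, with 0 at an unadjusted p under 0.05 and 0 by DESeq2.

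Cyp2b2, the classical CAR-induced P450 of rat, was at 0.825, 2.05 and 5.71 CPM with vehicle, 1.28, 3.08 and 3.46 CPM at 2.4 µM and 37.2, 59.2 and 99.1 CPM at 60 µM (28.5-fold, L2FC 4.83 ± 0.33 SE). The gene listed as AABR07035343.1, which the RefSeq table gives as a synonym of Cyp3a23/3a1, the main PXR-induced P450, was at 0.129, 0.730 and 2.30 CPM at 2.4 µM and at 136, 152 and 166 CPM at 60 µM. Its L2FC of 7.44 ± 0.34 (SE) was the highest of all 10191 genes. Gsta2, a glutathione transferase, went from 15.0, 20.4 and 25.9 CPM to 87.7, 232 and 400 CPM. Cyp2b1 was under 0.5 CPM in every well at 2.4 µM and at 1.46 to 2.59 CPM at 60 µM in the WT assay. Members of the P450, UGT, GST and SULT families have near-identical copies, so the split of reads between copies is uncertain.

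Of 13 enzymes of constitutive drug metabolism, 8 rose from 2.4 to 60 µM (61.5%, background 12.0%) and none fell. Cyp2c22 went from 139, 313 and 448 CPM to 1980, 3310 and 5240 CPM (L2FC 3.53 ± 0.26 SE). Ugt2b17 went from 64.8, 75.7 and 87.0 CPM to 720, 833 and 942 CPM (10.8-fold). Cyp2c11, a male-specific P450, had an L2FC of 1.80 ± 0.31 (SE), and Cyp2j4 1.73 ± 0.18 (SE). Of 6 AhR targets, 1 rose (16.7%), Cyp1a1, with an L2FC of 0.84 ± 0.23 (SE) and overlapping wells. For 60 µM against vehicle, 0 of the 6 were called by edgeR, with 1 higher at an unadjusted p under 0.05 and 0 by DESeq2.

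Hepatocyte factors and secreted proteins were in part higher at 60 than at 2.4 µM, 11 of 23 (47.8%, background 12.0%) with none lower. By ST assay 7 of 19 were higher and 1 lower. At 2.4 µM, 2 of the 23 were lower than vehicle (8.7%, background 1.28%) and none higher. At 60 µM, 12 were higher than vehicle (52.2%, background 11.4%) and 3 lower (13.0%, background 12.5%). Tat, which breaks down tyrosine, was at 29.5, 31.9 and 35.4 CPM at 2.4 µM and 69.0, 89.6 and 93.9 CPM at 60 µM (2.63-fold). Cps1, the entry enzyme of the urea cycle, was at 225, 297 and 377 CPM with vehicle, below that at 2.4 µM with 133, 192 and 223 CPM, and at 325, 420 and 490 CPM at 60 µM. Its L2FC was -0.69 ± 0.16 (SE) and then 1.17 ± 0.18 (SE). The fibrinogen chain Fgb (L2FC 0.87) and the clotting factor F9 (0.79) were higher without overlap of wells. In bile acid synthesis 4 of 7 genes rose (57.1%), led by Akr1d1, which reduces the steroid ring, with 20.8, 28.1 and 43.0 CPM at 2.4 µM and 110, 126 and 148 CPM at 60 µM, and Acox2, with an L2FC of 2.13 ± 0.20 (SE). The other 2 were Amacr (0.77) and Hsd3b7 (0.40), whose call was lost without any 1 of 8 wells (adjusted p up to 0.13, edgeR).

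The naming rule left out of the highest and lowest genes those listed by an accession or locus number, such as AABR07035343.1 above, AABR07035374.1 (L2FC 6.43) and LOC100910877, whose L2FC lay above those of the 12 it named. The 12 genes with the highest L2FC by that rule, all called in each batch, were Sult2a2 (4.95 ± 0.32 SE), Cyp2b2, Cyp4a2, Cyp2c24, Cyp4a1, Cyp2c22, Ugt2b17, Gsta2, Gsta5, Crp, Tsku and Ces1d. Sult2a2, a sulfotransferase of bile acids and steroids, was at 3.84, 5.04 and 6.49 CPM at 2.4 µM and 101, 152 and 223 CPM at 60 µM. Crp, an acute phase protein, went from 85.6, 92.3 and 116 CPM to 734, 855 and 1070 CPM (9.29-fold). Tsku, a protein secreted by liver, was at 40.5, 50.8 and 66.5 CPM with vehicle, 23.2, 30.2 and 47.4 CPM at 2.4 µM and 192, 228 and 245 CPM at 60 µM. Of these 12 genes, Tsku was the 1 called against vehicle at 2.4 µM, where it was lower (L2FC -0.71).

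Genes of the actin cytoskeleton and of YAP and SRF, factors that respond to actin tension, fell from 2.4 to 60 µM. Of 16 tested of 24 listed, 12 were lower (background 12.0%) and none higher, with a median L2FC of -0.486, and the wells of all 12 did not overlap. At 2.4 µM, 0 of the 16 differed from vehicle by edgeR, with 2 higher at an unadjusted p under 0.05 and 0 by DESeq2. Tpm1, a tropomyosin, was at 516, 653 and 717 CPM with vehicle, 554, 704 and 767 CPM at 2.4 µM and 123, 133 and 155 CPM at 60 µM. It was 5.00-fold lower at 60 than at 2.4 µM (L2FC -2.32 ± 0.17 SE, adjusted p = 5.81e-25, edgeR).

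Tagln, an actin-binding protein of smooth muscle, was at 56.1, 93.1 and 104 CPM at 2.4 µM and 2.05, 4.98 and 12.1 CPM at 60 µM (L2FC -4.07 ± 0.33 SE). Ankrd1, a standard YAP target, went from 12.8, 22.1 and 33.8 CPM to 2.88, 3.64 and 5.04 CPM, and Fhl2 from 3.13, 4.97 and 7.07 CPM to 1.14, 1.55 and 1.94 CPM. Acta1, a skeletal actin also controlled by SRF but in none of the lists, had the lowest L2FC by the naming rule given above, from 233, 305 and 444 CPM to 13.6, 14.8 and 17.1 CPM (21.5-fold lower). Of 17 small GTPases that act on actin and their partners, 1 was higher (5.88%; Rock1, L2FC 0.18) and 2 were lower (11.8%; Rnd1, -0.42, and Arhgef3, -0.60), no more than the background of 12.0% in each direction. Whether markers of other cells had a part in these values was not tested, and in bulk wells fewer cells of a type and less RNA per cell cannot be told apart.

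Of 9 KLF factors and vessel genes known to respond to statins, 3 rose (33.3%) and 2 fell (22.2%), with a background of 12.0% each. Klf2, the factor best known for this in endothelium, was at 0.805, 1.45 and 1.83 CPM with vehicle, 1.51, 2.89 and 4.39 CPM at 2.4 µM and 6.56, 8.62 and 10.1 CPM at 60 µM (L2FC 1.59 ± 0.27 SE for the second step). Plat, the tissue plasminogen activator, fell from 250, 364 and 435 CPM to 85.7, 110 and 142 CPM, without overlap. Klf9 (0.83) was higher with overlapping wells. Plaur, named after its values were seen, was the other gene that fell (-0.63).

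Inflammatory and proliferative genes were lower at 60 µM. Of 20 immediate early and NF-κB genes, 10 fell (background 12.0%) and none rose, with a median L2FC of -0.498. The chemokine Ccl20 was at 5.69, 10.3 and 12.2 CPM at 2.4 µM and 0.409, 1.19 and 2.11 CPM at 60 µM (L2FC -3.30 ± 0.43 SE). Cxcl2 went from 10.5, 20.1 and 28.1 CPM to 3.93, 5.88 and 6.98 CPM, while Ccl2 (-2.13) and Fosl1 (-1.26) overlapped between the concentrations. Cxcl3, not in the list, was higher at 2.4 µM than with vehicle (L2FC 1.22 ± 0.23 SE) and lower at 60 than at 2.4 µM (-2.45 ± 0.28 SE), with 15.2, 17.1 and 30.6 CPM at 2.4 µM and 3.01, 3.75 and 4.81 CPM at 60 µM.

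Of 17 cell cycle genes tested of 25 listed, 11 were lower (64.7%, background 12.0%) and none higher, with a median L2FC of -0.737, and the wells of 9 did not overlap. Ccnd1, cyclin D1, was at 21.5, 29.8 and 40.5 CPM with vehicle, 36.6, 48.1 and 57.1 CPM at 2.4 µM and 14.0, 17.5 and 24.4 CPM at 60 µM. It was the 1 gene of the 17 called against vehicle at 2.4 µM by edgeR, where it was higher (L2FC 0.71), a call not made by DESeq2 (0 of 17), and it fell by 1.41 on the log2 scale from 2.4 to 60 µM. The replicative helicase genes Mcm5 (-2.11 ± 0.35 SE), Mcm6 (-1.75 ± 0.29 SE) and Mcm3 (-1.29 ± 0.32 SE) were also lower. Of 13 p53 targets 6 fell (46.2%), the most Ccng1 (-1.08, with overlapping wells).

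The 12 genes with the lowest L2FC by the naming rule were Acta1, Tagln, Vil1, Calcb, Ankrd1, Cxcl3, Tpm1, Cxcl11, F3, Tp53i11, Myof and Msc. Vil1, an actin-bundling protein of microvilli, went from 15.4, 17.2 and 21.7 CPM to 1.91, 3.04 and 3.41 CPM (6.34-fold lower). F3, tissue factor, had an L2FC of -2.04 ± 0.25 (SE), and Myof, a membrane repair protein, -1.90 ± 0.19 (SE). Of these 12, Cxcl3 and Myof were called against vehicle at 2.4 µM, both higher there.

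Stress lists were called in part. Of 21 genes of the integrated stress response, 5 rose (23.8%) and 1 fell (4.76%), with a background of 12.0% each. Cebpb had the largest rise of these (L2FC 0.98 ± 0.12 SE, from 228, 306 and 420 CPM to 534, 629 and 687 CPM), and Ddit3, the factor CHOP, had an L2FC of 0.52 ± 0.19 (SE) with overlapping wells. Trib3 (0.47) also rose and Atf3 (-0.69) fell. Of 12 ER chaperones and their partners, 4 rose (33.3%), from Dnajc3 (0.31) to Edem1 (0.66), while for 60 µM against vehicle 0 of the 12 were called by edgeR, with 1 higher at an unadjusted p under 0.05 and 0 by DESeq2. Of 9 cytosolic heat shock proteins, 0 were called by edgeR, with 1 higher at an unadjusted p under 0.05 and 0 by DESeq2. Of 15 NRF2 targets, 2 rose (13.3%; Gsr, 0.73, and Ftl1, 0.34) and 2 fell (13.3%; Gpx2, -0.99, and Abcc4, -0.81), near the background. When one well was left out, the calls ran from 3 to 7 in the integrated stress response, 2 to 4 in ER chaperones and 2 to 5 in NRF2 targets.

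**Figure D4:**
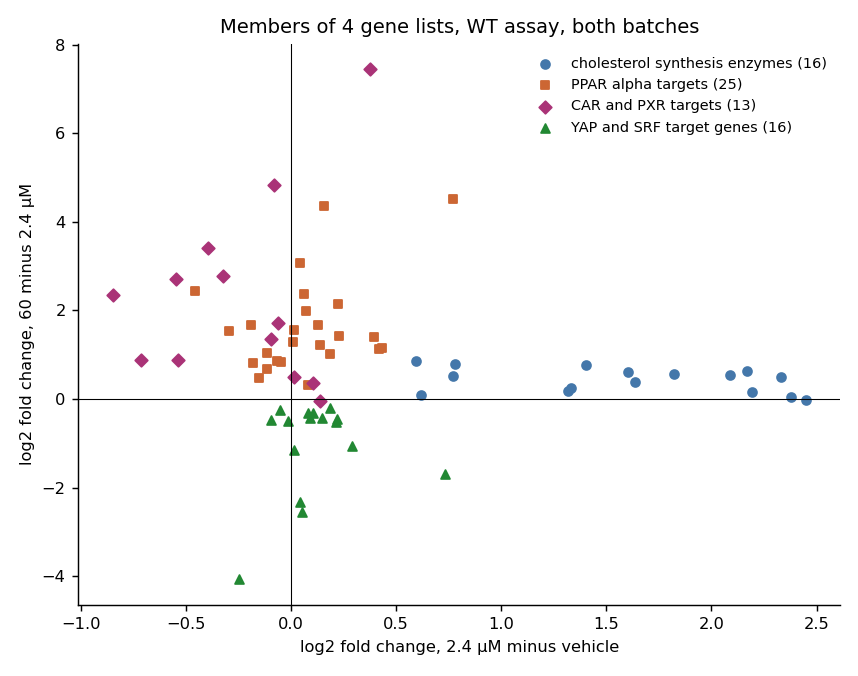
L2FC of 60 against 2.4 µM plotted against L2FC of 2.4 µM against vehicle for the members of 4 gene lists in the WT assay, each point being 1 gene. Since both axes use the wells at 2.4 µM, error in these wells tilts the points downward and no correlation is given. The enzymes of cholesterol synthesis spread along the horizontal axis from 0.60 to 2.45, and the PPARα targets along the vertical axis from 0.307 to 4.53.

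Several genes that were lower at 2.4 µM than with vehicle were higher again at 60 µM. Because both comparisons use the wells at 2.4 µM, the genes were chosen in one batch and read in the other, so that no well served both. Of 97 genes lower at 2.4 µM in batch 1 (180 DEGs there, 1.77%), 47 were higher at 60 than at 2.4 µM in batch 2 (48.5%, background 7.28%) and 4 were lower (background 5.89%). In batch 2, the 97 genes had a median L2FC of -0.333 at 2.4 µM against vehicle, 0.616 from 2.4 to 60 µM and 0.264 at 60 µM against vehicle.

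Chosen the other way, of 136 genes lower at 2.4 µM in batch 2 (262 DEGs, 2.57%), 46 were higher at 60 µM in batch 1 (33.8%, background 10.4%) and 4 were lower (background 8.43%). Their median L2FC in batch 1 was -0.27 at 2.4 µM against vehicle, 0.237 from 2.4 to 60 µM and -0.0272 at 60 µM against vehicle. The genes higher at 2.4 µM in batch 1, 83 in number, were split evenly in batch 2, with 12 higher and 12 lower at 60 µM (14.5% each, background 7.28% and 5.89%) and a median of 0.0175. The 126 genes higher at 2.4 µM in batch 2 gave 23 and 23 in batch 1 (18.3% each, background 10.4% and 8.43%). The 136 genes included 3 Kupffer cell markers, Cd163, Clec4f and Csf1r, with L2FC of -1.13, -1.46 and -1.19 in batch 2 and of 0.07, 0.27 and -0.0048 from 2.4 to 60 µM in batch 1. The part of these cells in the set was not tested. In each batch, 15 of the genes higher at 2.4 µM were enzymes of cholesterol synthesis.

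Among the genes chosen as lower in batch 1, Sult2a2, Akr1d1, Fabp1, Acox2, Tsku and Cps1 have been given above. In batch 2, Akr1d1 and Fabp1 had an L2FC of -0.05 each at 2.4 µM against vehicle, and the other 4 had -0.42 (Sult2a2), -0.46 (Tsku), -0.56 (Acox2) and -0.68 (Cps1). Of the others, named after their values were seen, Phyh, which breaks down branched fatty acids, had an L2FC in batch 2 of -0.52 at 2.4 µM against vehicle and 2.23 ± 0.17 (SE) from 2.4 to 60 µM. The tryptophan dioxygenase Tdo2 had -0.25 and 2.05 ± 0.23 (SE). Fah, the last enzyme of tyrosine breakdown, had -0.49 and 1.49 ± 0.21 (SE), and Fbp1, of gluconeogenesis, -0.47 and 1.12 ± 0.16 (SE).

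**Figure D5:**
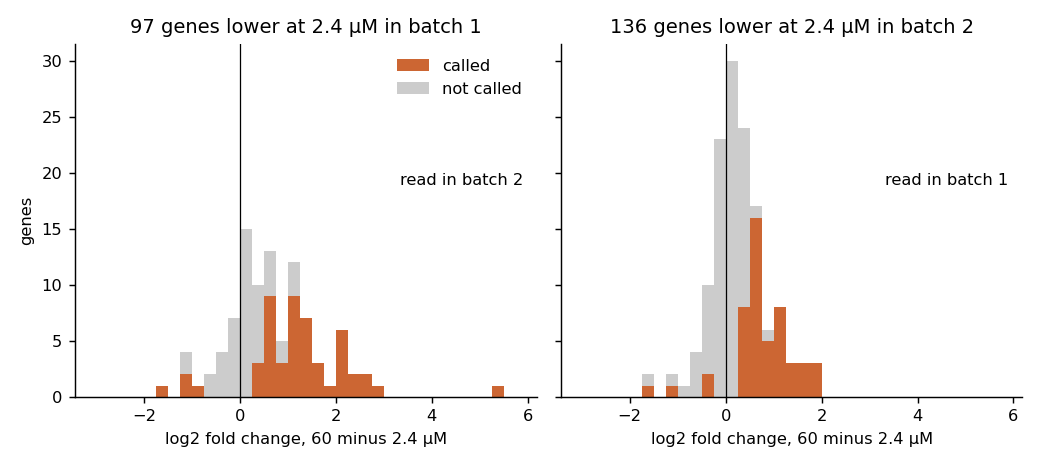
Histogram of the L2FC of 60 against 2.4 µM, read in one batch, for genes called lower than vehicle at 2.4 µM in the other batch, with the number of genes on the vertical axis and DEGs of the batch read in orange. The median lies at 0.616 in batch 2 for the 97 genes chosen in batch 1, and at 0.237 in batch 1 for the 136 chosen in batch 2.

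The batches were also fitted separately. From 2.4 to 60 µM, batch 1 gave 1917 DEGs (18.8%) and batch 2 gave 1342 (13.2%). The background was 10.4% higher and 8.43% lower in batch 1, and 7.28% higher and 5.89% lower in batch 2. Together 875 genes had the same sign and were called in both batches and in the joint fit, 508 higher and 367 lower. The second rise of cholesterol synthesis was larger in batch 1, where 10 of 16 enzymes were called with a median L2FC of 0.676, than in batch 2, where 3 were called with a median of 0.26. Lss and Mvk were among these 3. The difference between the batches itself was not past the threshold for any of the 16 (lowest adjusted p = 0.707, edgeR; 3 with an unadjusted p under 0.05, all smaller in batch 2). For this step Hmgcs1 had L2FC of 0.23 in batch 1 and -0.05 in batch 2, and Lss 0.79 and 0.80. The step from vehicle to 2.4 µM was smaller in batch 1 than in batch 2 for most of the enzymes, though not for all. Its L2FC was 1.66 and 2.91 for Hmgcs1, 1.49 and 2.68 for Acat2, 1.46 and 2.60 for Mvd, and 1.03 and 1.61 for Lss. Both steps use the wells at 2.4 µM, and whether their differences between batches are related was not tested.

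PPARα targets were higher for 23 of 25 in batch 1 (background 10.4%) and 23 of 25 in batch 2 (7.28%), and CAR and PXR targets for 9 and 11 of 13. YAP and SRF genes were lower for 10 of 16 in batch 1 (background 8.43%) and 7 in batch 2 (5.89%). Some lists had fewer calls in batch 2, where fewer genes were called in all. Cell cycle genes were lower for 10 of 17 in batch 1 and 5 in batch 2, and immediate early and NF-κB genes for 11 and 7 of 20. ER chaperones were higher for 5 and 1 of 12, with 6 and 6 at an unadjusted p under 0.05. Genes of isoprenoid use were higher for 3 and 0 of 15 by edgeR, with 4 and 1 unadjusted. NRF2 targets were higher for 6 and 0 of 15 by edgeR, with 9 and 1 unadjusted. For 6 of the 15 NRF2 targets the step was smaller in batch 2 at an unadjusted p under 0.05, and for none at the adjusted threshold (lowest adjusted p = 0.317, edgeR). Over all genes, the difference between 60 and 2.4 µM differed between the batches for 4 (0.0393%), with 682 at an unadjusted p under 0.05.

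Markers of other liver cells were tested for the same difference. Of 11 Kupffer cell and leukocyte markers, 6 were tested and 1 was lower at 60 µM (Cd74, L2FC -0.63 ± 0.22 SE, a call lost without any 1 of 4 wells). The summed CPM of the 11 was 87.2 to 119 at 2.4 µM and 80.0 to 88.9 at 60 µM in batch 1, and 54.3 to 64.5 and 43.6 to 45.2 in batch 2. With vehicle it was 108 to 143 in batch 1 and 67.9 to 96.8 in batch 2, and 2 of the 6 were already lower than vehicle at 2.4 µM (33.3%, background 1.28%), with a median L2FC of -0.586. The chemokine and NF-κB genes fell in the same wells, and the part of these cells in that fall was not tested. For 7 markers of stellate cells and fibroblasts the sum was 119 to 211 and 149 to 178 CPM in batch 1, and 37.0 to 49.1 and 55.6 to 56.6 CPM in batch 2, so that the wells overlapped in batch 1 and were higher at 60 µM in batch 2. The part of these cells in the values of the actin genes was not tested. Of 3 tested, 2 were higher, Col3a1 (0.51) and Rgs5 (1.04), both calls lost when single wells were left out, and Des, a defining stellate marker, had 1 read over the 12 wells.

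The 8 endothelial markers summed to between 1.56 and 6.66 CPM over the 12 wells, with none of 1 tested called. Klf2 is known mainly from that cell type, whose part in its change was not tested. The 5 bile duct markers summed to 31.0 to 43.4 CPM at 2.4 µM and 32.9 to 37.6 CPM at 60 µM in batch 1. In batch 2 the sums were 38.8 to 51.7 and 54.4 to 63.0 CPM, higher at 60 µM without overlap. Of the 5, 3 were tested. Epcam was higher (0.41) and Sox9 lower (-1.87 ± 0.33 SE), and Krt7 had 1 read over the 12 wells.

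By ST assay, which measures other libraries of the same lysates with between 998176 and 1991154 reads per well, 570 of 1760 genes differed between the concentrations (32.4%), 290 higher (16.5%) and 280 lower (15.9%). There 4 of 14 cholesterol synthesis enzymes were higher at 60 than at 2.4 µM (28.6%, background 16.5%) and 14 of 14 higher at 2.4 µM than with vehicle (background 3.86%, with 4.94% lower and 8.81% called in all). Lss had an L2FC of 0.53 and Msmo1 of 0.03. PPARα targets were higher for 21 of 22 with a median of 1.26, CAR and PXR targets for 10 of 11 with a median of 1.54, and YAP and SRF genes lower for 5 of 6. Cyp4a2 had an L2FC of 4.36, Cyp2b2 5.07, Tagln -4.03 and Acta1 -5.04. The assays share lysates, so ST is a check of the probes and not a further replicate. Its depth followed the concentration in batch 1, with 1004051 to 1095210 reads per well at 60 µM and 1521209 to 1991154 at 2.4 µM. In batch 2 the depths overlapped.

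Set beside the other chemicals of the series by the same fit, the step from low to high concentration of simvastatin ranked 11th of 14 by DEGs, from 7773 for acetaminophen to 585 for WY14643, with concentrations that differ by chemical. The median L2FC of the PPARα targets for that step was 1.91 for indomethacin, 1.83 for naproxen and 2.1 for sulfasalazine beside 1.41 for simvastatin, and that of cholesterol synthesis was 1.66 for ketoconazole, 0.885 for ranitidine and 0.664 for sulfasalazine beside 0.512. For the YAP and SRF genes it was -1.44 for caffeine, -1.01 for naproxen, -0.95 for acetaminophen and -0.748 for indomethacin beside -0.486. It was above 0 for ranitidine (0.281) and isoniazid (0.111). For cell cycle genes it was -1.71 for diclofenac, -1.27 for acetaminophen and -1.25 for indomethacin beside -0.737. For CAR and PXR targets it was 1.72 for indomethacin beside 1.71, and -1.66 for diclofenac. None of these changes was thus particular to simvastatin. These differences between chemicals were not tested.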

How the data were processed

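The authors hybridized well lysates with TempO-Seq detector oligos, ligated and sequenced them, aligned the reads with STAR 2.5.3a to rn6 and deposited raw read counts, 1 value for each probe in each well. A read here is not a molecule. Reads per well limit which low genes can be tested, and the 186 WT wells were used as deposited.

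Counts of probes with one symbol (22253 probes, 20946 symbols) were added. Genes averaging 10 counts or more over the 186 wells were tested in R 4.3.3 with the edgeR 4.0.16 quasi-likelihood test (limma 3.58.1), TMM, treatment and batch as terms, and Benjamini-Hochberg adjustment over 10191 genes. The authors used DESeq2, here an alternative (1.42.0). Each batch, the ST assay and the difference between batches were fitted alike. Named genes were the 12 highest and 12 lowest L2FC among genes called in each batch with at least 10 CPM at the higher concentration and a symbol that is no accession or locus number, every cholesterol synthesis enzyme, up to 4 called genes per other list, Srebf2 and Insig1, and the 5 lowest p between batches. Some genes so named are counted in their lists but not reported here. The comparison, gene lists and members were chosen with earlier results of these data known. On simulated counts of the 10191 genes for 60 against 2.4 µM, 100% of the genes changed by an L2FC of 1 or 2 were called, with 13 false calls among 9991 unchanged genes. The changed genes were drawn only from those with higher counts, and only simvastatin and vehicle wells were simulated. No batch effect and no spread particular to a gene were put in. The simulation therefore does not show how often changes in low or variable genes are found. Promoters came from RefSeq on GRCr8, and no rn6 genome was used here.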

Additional observations from a re-analysis of the deposited data

Results flagged for a closer look

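In 214 groups of 6 wells, 7 held a well whose gap to the others, divided by the range of the group, was above 0.625, the limit of Dixon's test for 6 wells. The groups were the 105 named genes at each concentration over both batches, and the total reads at each concentration in each assay. Chance flags about 5% of such groups. At 2.4 µM these were Fdft1 (0.732), Mvd (0.679), Tsku (0.64), Abca1 (0.636) and Pdk4 (0.781), and at 60 µM Acox2 (0.783) and Cxcl11 (0.692). Well D09 of batch 2 at 2.4 µM was the lowest for Fdft1 (141 CPM, with the others at 203 to 226) and Mvd (14.4 CPM, with the others at 24.7 to 29.6), and the highest for Tsku (47.4 CPM, with the others at 23.2 to 31.9). Pdk4 had 0.647 CPM in its highest well at 2.4 µM and at most 0.142 CPM in the others, and Abca1 9.48 CPM against 6.6 to 7.65 CPM. At 60 µM, Acox2 had 49.7 CPM in one well against 33 to 36.6 CPM, and Cxcl11 11.1 against 7.26 to 8.45 CPM.

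The difference between 60 and 2.4 µM itself differed between the batches, by the edgeR test of that difference, for 4 genes. Trak2 differed by an L2FC of 0.708 (batch 2 minus batch 1), with -0.25 in batch 1 and 0.43 in batch 2. Zfp36l1 differed by 0.53, with -0.67 and -0.17, and Usp9x by 0.446, with -0.26 and 0.16. The gene listed as AABR07035374.1 differed by 1.29, being 5.84 higher at 60 µM on the log2 scale in batch 1 and 7.10 higher in batch 2.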

How the results depend on the processing

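The count of 2443 DEGs between 60 and 2.4 µM stayed between 1917 and 3481 under DESeq2 (2506), no filter (2223), RLE size factors (2424), treatment by batch groups (2903), the 12 wells alone (3481), thinned wells (2319), single probes (2517) and batch 1 alone (1917). It was 1342 in batch 2 alone, 570 by ST assay, which tests fewer genes, and 494 with an absolute L2FC of at least 1. Without one well it was 2015 to 2465. DEGs of 2.4 µM against vehicle rose from 245 to 444 with treatment by batch groups, an alternative added after seeing the data, and were 165 to 278 without one well. Genes that differ between batches rose from 4 to 10 with the 12 wells alone. In batch 2 alone, cholesterol synthesis had 3 calls and a median of 0.26, YAP and SRF genes 7 calls, and CAR and PXR targets a median of 1.51. In batch 1 alone, the median of PPARα targets was 1.3 and of CAR and PXR targets 1.94. By ST assay, cholesterol synthesis had 4 calls, YAP and SRF genes 5 with a median of -1.03, and PPARα and CAR and PXR targets medians of 1.26 and 1.54. The cause of these shifts was not tested, except that the ST assay holds fewer genes. Of L2FC of named genes, Pdia6 was reversed by ST assay (-0.05018) and Trak2 in batch 1 alone (-0.2463). Of 94 named genes called, 17 lost the call without some one well (Abcc4, Asgr1, Atf3, Ccng1, Cd74, Col3a1, Ddit3, Dnajc3, Epcam, Fdps, Ftl1, Hsd3b7, Mvd, Pdia6, Rgs5, Rock1 and Trib3), 11 in batch 1 alone, 23 in batch 2 alone, 7 with no filter, 2 with RLE and 0 with DESeq2, and 12 of the 54 measured by ST assay lost it there. The share of higher genes among DEGs was 50.1%, from 48.7% with no filter to 55.3% in batch 2 alone. Without one well, calls in ER chaperones fell from 4 to 2 (without any 2.4 µM well of batch 1, replicate 1 at 60 µM of batch 1 or replicate 2 at 60 µM of batch 2), in NRF2 targets from 4 to 2 (without replicate 2 or 3 at 60 µM of batch 1 or replicate 3 at 2.4 µM of batch 2) and in the integrated stress response from 6 to 3 (without replicate 3 at 2.4 µM of batch 1). Calls rose from 1 to 2 in isoprenoid genes (without 3 wells) and AhR targets (without 1). No paired analysis was possible because the labels number no replicates (the numbers used here follow accession order and only name wells), and the rat is already a term of the fit as batch.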
